A study of Mus musculus with 12 samples.

Results

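The rows of 6 structural and small noncoding RNAs were described here, chosen by symbol from the 24015 rows of a gene count table: Rn45s, Lars2, Rmrp, Rpph1, Rnu11 and Bc1. They had been picked with their levels in these libraries already known, so their differences between groups are given as a description and without a test. All 6 had enough counts to be among the 15668 genes that were tested. RNA came from nuclei of mouse hippocampus in 12 libraries, 3 each of the groups Early, Late, Reactivated and Basal. Every group came from the cross ArcCreERT2 x R26R-STOP-floxed-eYFP with genotype +/+, in which a tamoxifen-dependent Cre recombinase driven by Arc leaves a lasting yellow fluorescent mark in neurons that were active while the drug was present. All mice had 24 h of darkness and 4-hydroxytamoxifen 1 h before contextual fear conditioning. The labels also give 48 h of dark housing after conditioning. Tissue was collected either 1.5 to 2 h after conditioning or after 5 days, with or without renewed exposure to tone and context. The group names come from the library titles, and the treatment label reads the same for all 12 libraries, Basal included. No label ties a time of collection or a sorting gate to a title, and no label gives the age of the mice.

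Sorting used antibodies to NeuN, Arc and GFP on nuclei fixed with 1% paraformaldehyde, and each library holds about 10000 nuclei pooled from 10 to 12 mice. Ribosomal cDNA was depleted during library preparation with a stranded total RNA kit and 15 cycles of PCR, per the extract protocol, whereas the design text names SmartSeq2. Libraries held 4838166 to 11120255 counts. Replicates 1 and 2 of Early, of Late and of Basal were much closer to each other (chi-square per degree of freedom 2.95 to 4.01) than any other pair within a group (21.5 to 40.7), so replicate 3 of these groups stood apart. No pair agreed within sampling noise, which does not show that replicates 1 and 2 have separate sources. All were counted as separate samples, and the errors and p-values below rest on this. If those replicates share a source, the errors and p-values may be too small. With each such pair summed into 1 library, a setting chosen after seeing the data, 213 genes were called in Early against Basal, beside 944. In Late against Basal 4411 were called, beside 7686. The 5 neuronal markers were detected in every group, summing to 14093 to 15969 normalized counts in Early and 14429 to 14972 in Late. They summed to 16928 to 20706 in Reactivated and 9977 to 11989 in Basal. The markers in this sum did not move together. By group mean, Gad1 was highest in Basal (594, against 381 in Early, 282 in Late and 383 in Reactivated). Slc17a7 was lowest in Basal (1922, against 2992 in Early, 4543 in Late and 4923 in Reactivated). The 5 oligodendrocyte markers summed to 1345 to 1732 in Early, 4610.3 to 9843 in Late, 2712 to 7265 in Reactivated and 1574 to 2114 in Basal. The 5 microglia markers summed to 349 to 425 in Early, 2421 to 5211 in Late, 436 to 1158 in Reactivated and 409 to 468 in Basal. The 5 astrocyte markers summed to 281 to 622 in Early, 413 to 485 in Late, 569 to 1580.5 in Reactivated and 402 to 794 in Basal, and the 4 blood vessel markers to 3.13 to 19.2 in Early, 18.5 to 25.2 in Late, 33.4 to 242 in Reactivated and 12.9 to 508 in Basal. No marker was at 0 in any group. Their part in the results that follow was not tested, and in nuclei collected in bulk a change in which nuclei were sorted and a change in RNA per nucleus cannot be told apart.

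These RNAs belong to the machinery that makes ribosomes, transfer RNAs and spliced messages. Rn45s is the precursor that RNA polymerase I transcribes and that is cut into the large rRNAs in the nucleolus. Rmrp and Rpph1 are the RNA subunits of RNase MRP, which cuts the rRNA precursor, and of RNase P, which trims the leader of transfer RNA precursors. Both are made by RNA polymerase III and share most of their protein subunits. Rnu11 is U11, the small nuclear RNA that recognizes the start of the rare minor introns together with U12. Bc1 is a rodent RNA of neurons, made by RNA polymerase III, that travels into dendrites and represses translation there. Lars2 is the gene of the mitochondrial leucyl-tRNA synthetase, and its last part resembles ribosomal RNA.

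The 4 noncoding RNAs with a transcript in the reference are shown because the results turn on them. Sequences are from GENCODE M21 on GRCm38. In Bc1 the capitals mark letters of the internal A box of RNA polymerase III (searched as T, 1 open base, GC, 2 open bases, AG, 1 open base and GG), at bases 14 to 24.
Bc1: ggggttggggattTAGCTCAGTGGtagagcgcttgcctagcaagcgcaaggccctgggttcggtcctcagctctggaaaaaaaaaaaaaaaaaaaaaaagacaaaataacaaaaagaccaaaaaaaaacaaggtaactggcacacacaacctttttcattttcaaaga
In Rnu11 the capitals mark letters that look like the site for the ring of Sm proteins (searched as an A, 6 T and a G), at bases 88 to 95.
Rnu11: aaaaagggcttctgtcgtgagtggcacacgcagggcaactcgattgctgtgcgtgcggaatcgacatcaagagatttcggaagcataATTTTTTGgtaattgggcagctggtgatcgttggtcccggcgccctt
In Rmrp and Rpph1 the capitals mark a pattern (GAA, 1 open base, GTC, 3 open bases and G) chosen by aligning these transcripts with each other, at bases 68 to 78 of Rmrp and 61 to 71 of Rpph1, of which the first 300 bases are shown.
Rmrp: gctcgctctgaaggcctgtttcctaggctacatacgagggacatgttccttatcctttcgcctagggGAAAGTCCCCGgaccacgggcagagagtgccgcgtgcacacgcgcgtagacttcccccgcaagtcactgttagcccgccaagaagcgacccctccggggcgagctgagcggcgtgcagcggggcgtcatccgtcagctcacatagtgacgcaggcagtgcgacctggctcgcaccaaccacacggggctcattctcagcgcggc
Rpph1: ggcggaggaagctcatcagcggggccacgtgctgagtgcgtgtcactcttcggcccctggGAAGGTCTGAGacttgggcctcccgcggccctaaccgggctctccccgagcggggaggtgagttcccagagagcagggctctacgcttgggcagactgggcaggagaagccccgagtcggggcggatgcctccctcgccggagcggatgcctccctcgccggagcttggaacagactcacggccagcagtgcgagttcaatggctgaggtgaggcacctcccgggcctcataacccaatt
The A box letters were also found at bases 58 to 68 of Rmrp, where they overlap the shared pattern by a base. Searched on both strands, the A box letters occur in 4.73%, the Sm letters in 1.03% and the shared pattern in 3.02% of 32851 RefSeq promoter windows of 300 bases, so each match is a description and not a site. Bc1 is 168 bases long with a GC content of 40.5%, Rnu11 134 bases with 52.2%, Rmrp 271 bases with 64.2% and Rpph1 319 bases with 67.1%.

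The 6 RNAs did not share 1 pattern. By group mean, Rn45s and Rpph1 were highest in Late, Rmrp and Lars2 were highest in Reactivated, and Rnu11 and Bc1 were highest in Reactivated and lowest in Late. In Reactivated against Basal, every Reactivated library lay above every Basal library for 6 of 6 RNAs, where 22.8% of all genes tested did so. In Late against Basal, 3 RNAs lay above (Rn45s, Rmrp and Rpph1) and 2 lay below (Rnu11 and Bc1), where 31.3% of all genes lay above and 31.2% below. In Early against Basal, Bc1 was the 1 RNA without overlap, and it lay above, as 11.9% of all genes did. These percentages are given beside the counts as background, and nothing is read from them because the RNAs were chosen with these contrasts known.

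In Reactivated against Late, Lars2, Rnu11 and Bc1 lay above without overlap, as 18.4% of genes tested did, and Rn45s lay below, as 21.2% did. In Reactivated against Early, all 6 lay above, as 19.2% did. In Late against Early, the same 3 RNAs lay above and the same 2 below as in Late against Basal, with 29.5% and 30.4% of genes tested doing so. Early and Late against Basal share the Basal libraries, and Late against Early shares the Late libraries, so these counts are not independent. Normalized counts here are counts divided by an effective library size (TMM). On the counts as deposited, 2 RNAs lay above and 1 below in Late against Basal, and with all libraries scaled to the same total 2 lay above and 2 below, since Rmrp overlapped in both and Rnu11 overlapped on the counts as deposited. In Reactivated against Basal the count was 6 of 6 on all 3 scales.

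**Figure D1:**
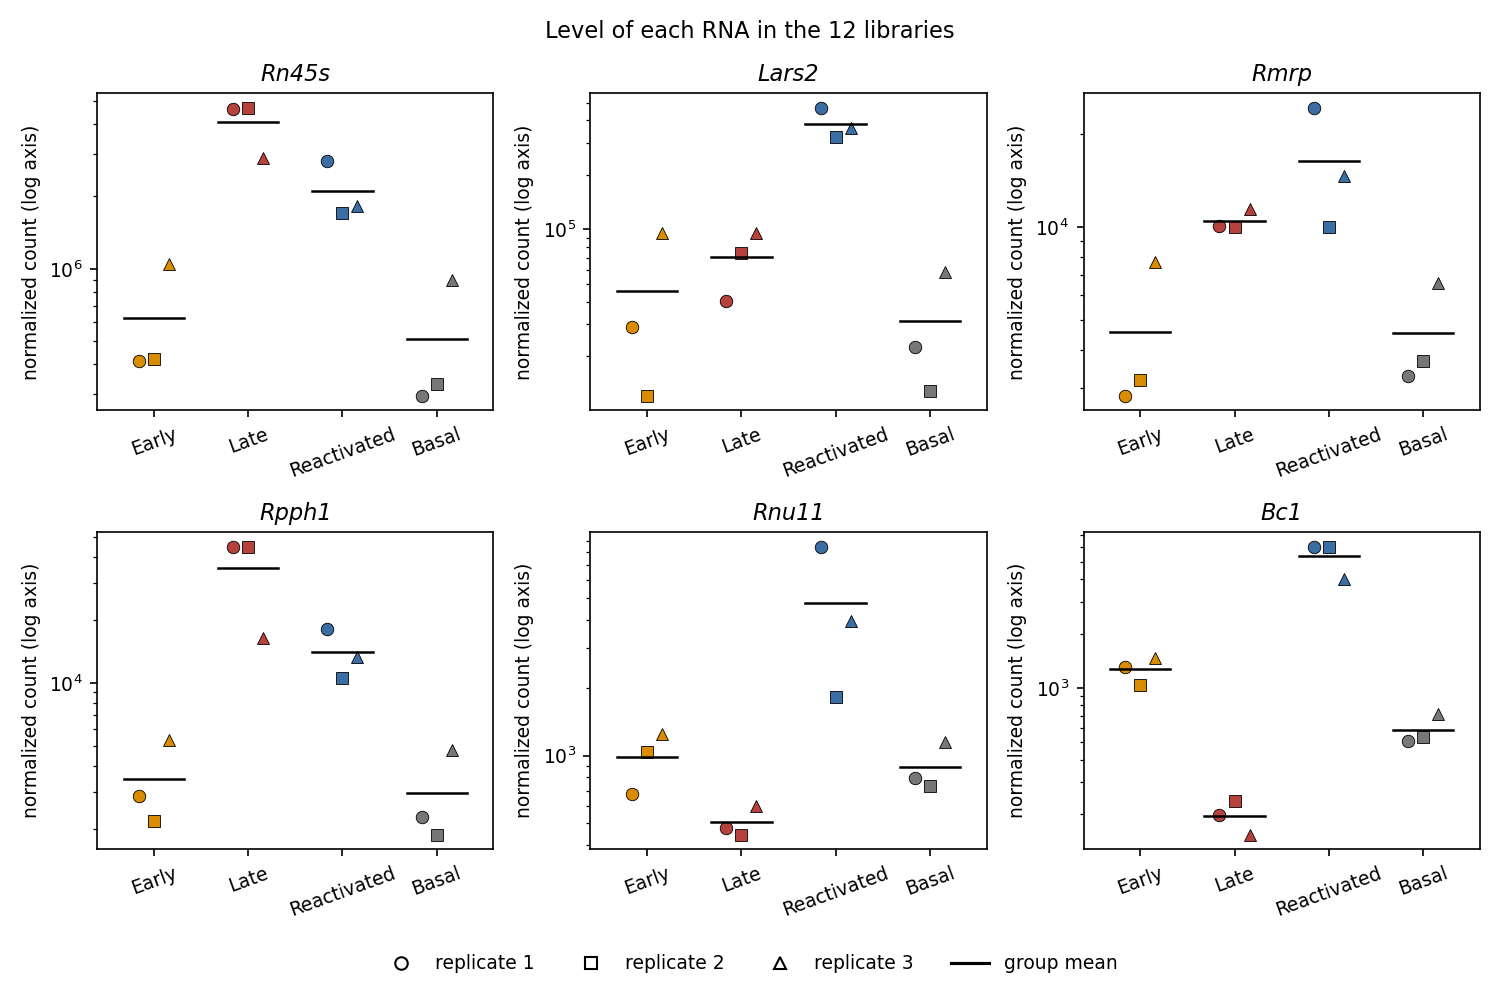
Normalized counts (log axis) of each RNA in the 12 libraries, with a marker for each replicate number and a line at the group mean. Rn45s and Rpph1 are highest in Late, and Rnu11 and Bc1 are lowest there. Replicate 3 is the highest of its group for all 6 RNAs in Early and in Basal.

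The Rn45s row, named for the rRNA precursor, took the most counts of any row in every Late and Reactivated library. It took 6.23%, 6.36% and 12.9% of the counts in Early 1 to 3, 35.7%, 36.5% and 27.9% in Late, 27.7%, 18.8% and 20.7% in Reactivated, and 4.72%, 5.17% and 12.2% in Basal. The widest 95% Wilson interval of these shares spanned 0.0647 percentage points, so counting error is far smaller than the spread between libraries. Counts per gene cannot tell the precursor from the large rRNAs that are cut from it. Ribosomal cDNA was depleted during library preparation, and the part of depletion in these shares was not tested. The Late and Reactivated libraries all lay above the Early and Basal ones, which overlapped each other. Late and Reactivated did not overlap on normalized counts, but the gap was small, with 2894525 in the lowest Late library and 2805669 in the highest Reactivated one. The log2 fold change of Rn45s was 3.00 ± 0.45 (SE) in Late against Basal, 2.06 ± 0.43 in Reactivated against Basal and 0.30 ± 0.42 in Early against Basal. In Reactivated against Late it was -0.94 ± 0.42. Without Basal 3 the value in Late against Basal was 3.70 and without replicate 3 of Early, Late and Basal together 3.90. With the same total for all libraries it was 2.18, since that scaling moves the median of all genes by -0.87 in this comparison. The oligodendrocyte markers and the microglia markers were also highest in Late, as given above, and whether they have a part in this was not tested.

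Lars2 did not follow Rn45s. The Lars2 row had 29094, 12118 and 95862 normalized counts in Early, 40103, 74511 and 95740.4 in Late, 467263, 321823 and 360915 in Reactivated, and 22494, 12824 and 58144 in Basal. The 3 Reactivated libraries lay above all others, and the other 3 groups overlapped. The log2 fold change was 3.62 ± 0.67 in Reactivated against Basal and 2.45 ± 0.63 in Reactivated against Late, against 1.17 ± 0.61 in Late against Basal and 0.55 ± 0.60 in Early against Basal. The highest library of Early was 7.91 times its lowest, the widest spread of any of the 6 RNAs in any group, and without Basal 3 the log2 fold change in Reactivated against Basal was 4.44.

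The ratio of the pair within a library does not depend on how libraries are scaled. Lars2 had 7.01, 2.86 and 9.20 counts per 100 Rn45s counts in Early, 0.866, 1.59 and 3.31 in Late, 16.7, 18.8 and 19.7 in Reactivated, and 7.60, 3.88 and 6.48 in Basal. Every Reactivated library was above every other library, and every Late library was below every Basal library. The ratio averaged 18.4 ± 1.58 in Reactivated and 1.92 ± 1.25 in Late (SD, n = 3 each). Lars2 and Rn45s counts therefore changed by unequal amounts between the groups.

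The level of the Lars2 row was unlike that of Lars and of the 17 other genes in the list of mitochondrial synthetases. Per 100 bases of the longest coding transcript, Lars2 had 1173 ± 1137 normalized counts in Early, 1801 ± 721 in Late, 9844 ± 1933 in Reactivated and 800.04 ± 613 in Basal (SD, n = 3 each). The list of 17 other genes holds mitochondrial aminoacyl-tRNA synthetases, which charge transfer RNAs in mitochondria, and Qrsl1, which is not a synthetase. These genes had between 0.604 and 14.6 per 100 bases in Early and 0.372 and 16.6 in Late. They had between 0.300 and 15.2 in Reactivated, and 0.457 and 15.0 in Basal. Lars, the leucyl-tRNA synthetase of the cytosol, had 11.2 per 100 bases in Early, 11.95 in Late, 12.2 in Reactivated and 13.3 in Basal. Lars did not pass the test in any of the 6 comparisons, with log2 fold changes from -0.26 to 0.13.

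Of the 17 other genes in this list, 5 passed the test in Reactivated against Basal, all lower, where Lars2 was higher. The median log2 fold change of the list was -0.43 beside 0.02 over all genes tested. In that comparison 20.6% of all genes rose and 18.8% fell by edgeR's quasi-likelihood test with Benjamini-Hochberg adjusted p of at most 0.05. Fars2, the phenylalanyl enzyme, fell 2.60-fold (82.3 ± 14.1 normalized counts in Reactivated, 217 ± 65.2 in Basal, SD, n = 3 each). Rars2, the arginyl enzyme, fell 1.65-fold and Tars2, the threonyl enzyme, 1.49-fold. In Late against Basal, 4 rose and 5 fell, with a median of -0.30 beside -0.03 over all genes, where 25.4% of all genes rose and 23.6% fell. Fars2 fell 2.66-fold and Rars2 1.95-fold there. When all libraries were scaled to the same total, 12 passed in Late against Basal and 10 in Reactivated against Basal, all lower. Of the 15668 genes tested, that scaling called 1401 higher and 9062 lower in Late against Basal. In Reactivated against Basal it called 1240 higher and 5833 lower.

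A stretch of the Lars2 transcript is shared with other RNAs. The longest coding transcript of Lars2 has 3894 bases in GENCODE M21, with a 3′ untranslated part of 986 bases that begins at base 2909. Bases 3163 to 3349 of it matched a transcript of AA474408 with 80.1% identity over 196 aligned bases, and bases 3278 to 3349 matched one of Gm15564 with 98.6% identity over 72. Neither gene has a row of its own in the count table. This stretch is known to resemble the large-subunit rRNA, for which no sequence was at hand, and how many of the Lars2 counts fall on it cannot be read from a table of counts per gene.

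**Figure D2:**
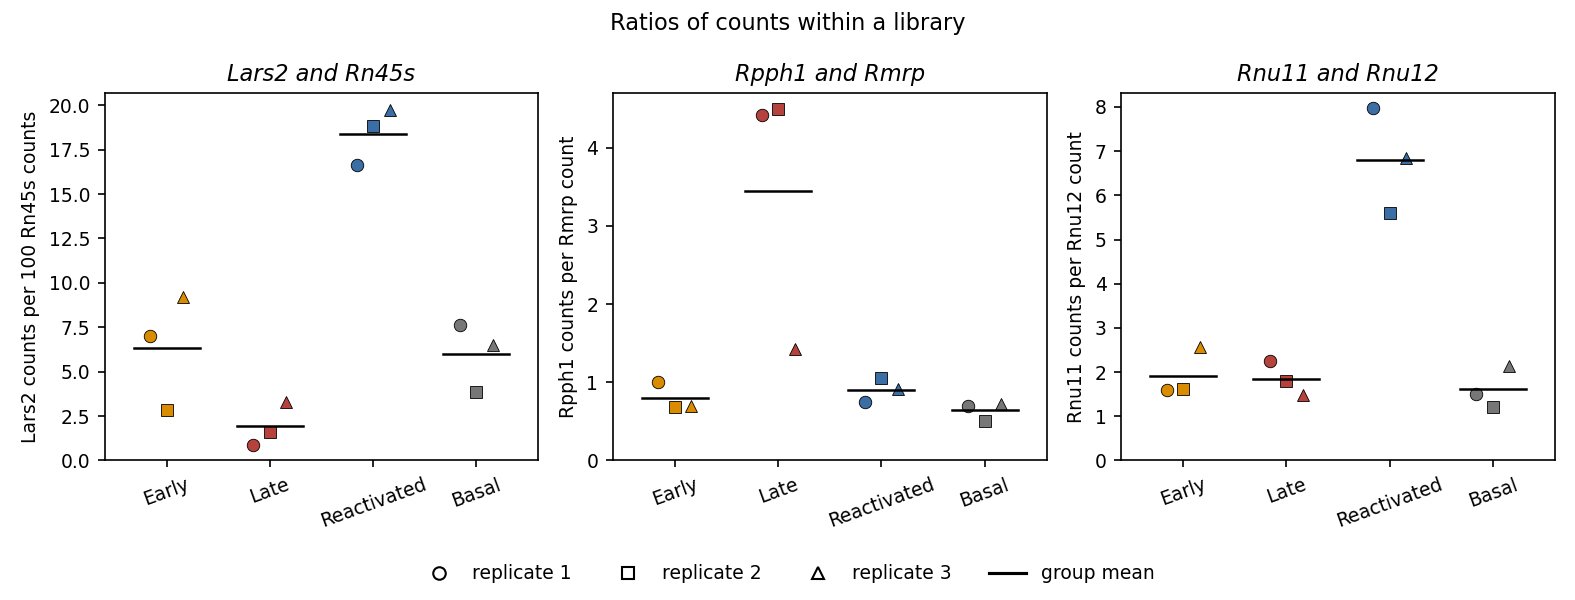
Ratios of raw counts within each of the 12 libraries, with a marker for each replicate number and a line at the group mean, on linear axes that start at 0. Lars2 per 100 Rn45s counts and Rnu11 per Rnu12 count are highest in all 3 Reactivated libraries. Rpph1 per Rmrp count is highest in the 3 Late libraries, with Late 3 at 1.43 against 4.42 and 4.50 in Late 1 and 2.

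Rmrp and Rpph1, the RNAs of the paired RNases, differed most in Late. Rmrp had 2838, 3199 and 7679.7 normalized counts in Early, 10091, 9972 and 11437 in Late, 24335, 10008 and 14629 in Reactivated, and 3296, 3684 and 6601 in Basal. The Late and Reactivated libraries lay above all Early and Basal ones and overlapped each other, and Reactivated 1 was highest. Rpph1 had 2862, 2188 and 5309 in Early, 44605, 44832 and 16331 in Late, 18111, 10599 and 13295 in Reactivated, and 2292, 1880.0 and 4766 in Basal. Again all Late and Reactivated libraries lay above all Early and Basal ones, while Late 3 fell within the range of the Reactivated libraries.

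The log2 fold change of Rpph1 was 3.56 ± 0.45 (SE) in Late against Basal and 2.23 ± 0.43 in Reactivated against Basal. That of Rmrp was 1.21 ± 0.38 and 1.85 ± 0.38 in the same comparisons, so the order of Late and Reactivated differed between the RNAs. In Reactivated against Late the value was -1.33 ± 0.42 for Rpph1 and 0.64 ± 0.37 for Rmrp. In Early against Basal the values were 0.21 ± 0.41 and 0.01 ± 0.37. The Rmrp value in Late against Basal was 0.41 with the same total for all libraries, and the Rmrp value in Reactivated against Late was 0.23 without Reactivated 1. The Rpph1 value in Late against Basal was 4.43 without replicate 3 of Early, Late and Basal.

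Within a library, Rpph1 had 1.01, 0.684 and 0.691 counts per Rmrp count in Early, 4.42, 4.50 and 1.43 in Late, 0.744, 1.06 and 0.909 in Reactivated, and 0.695, 0.510 and 0.722 in Basal. The ratio was above 1.06 in Late alone, and the other 3 groups overlapped. Ccdc107, a protein-coding gene on the opposite strand over Rmrp, had 66.0 ± 19.7 normalized counts in Early, 110 ± 16.4 in Late, 125 ± 41.5 in Reactivated and 60.9 ± 12.4 in Basal (SD, n = 3 each). Ccnb1ip1, which covers Rpph1 on its own strand, was listed at 0 in all libraries. The strand setting of the counting is not given in the sources used here, so reads of such neighbours cannot be told apart.

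Of 11 genes for proteins of RNase P and RNase MRP, 1 rose and 1 fell in Late against Basal. There 25.4% of all genes rose and 23.6% fell (median log2 fold change -0.31 for the list beside -0.03 over all genes tested). In Reactivated against Basal 2 passed, both higher, where 20.6% of all genes rose and 18.8% fell (median -0.16 beside 0.02). In Reactivated against Late 1 rose and 1 fell, where 10.3% of all genes rose and 12.3% fell. Scaled to the same total, 1 rose and 6 fell in Late against Basal, and 1 rose and 3 fell in Reactivated against Basal. On that scale 1401 of all 15668 genes rose and 9062 fell in Late, and 1240 rose and 5833 fell in Reactivated. Rpp40, a subunit of both enzymes, rose 5.58-fold in Late to 7755 ± 1085 normalized counts, against 1389 ± 151 in Basal (SD, n = 3 each, log2 fold change 2.48 ± 0.23, adjusted p = 1.28e-06 by edgeR's quasi-likelihood test). Rpp40 was 2.39-fold lower in Reactivated than in Late. Among other structural RNAs, Rprl1, Rprl2 and Rprl3 carry names of RNase P RNA-like copies, so reads may be shared with Rpph1. Rprl3 had 2 counts in Early, 97 in Late, 83 in Reactivated and 1 in Basal over the 3 libraries of each group, and Rprl1 had 35 in Late, 4 in Reactivated and 0 in Early and in Basal. Rprl2 had 15 in Early, 52 in Late, 63 in Reactivated and 45 in Basal.

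Genes that make or process these RNAs passed in both directions against Basal with TMM scaling. Scaled to the same total, most that passed in Late and Reactivated were lower, as were most of all genes called. Of 14 tested genes of the RNA polymerase I machinery, 5 rose and 3 fell in Late against Basal (median 0.12 beside -0.03 over all genes) and 3 rose and 2 fell in Reactivated against Basal (median 0.05 beside 0.02). The same total gave 1 higher and 6 lower in Late against Basal, and 1 higher and 4 lower in Reactivated against Basal. Over all 15668 genes, the same total gave 1401 higher and 9062 lower in Late, and 1240 and 5833 in Reactivated. With TMM scaling, 25.4% of all genes rose and 23.6% fell in Late against Basal. In Reactivated against Basal 20.6% rose and 18.8% fell. Cd3eap, a subunit of the polymerase, rose 3.30-fold in Late to 801 ± 212 normalized counts, against 242 ± 17.9 in Basal. Polr1b, the second-largest subunit, fell 1.70-fold in Late and 1.57-fold in Reactivated. Ubtf, the factor that keeps rRNA genes open, rose 2.07-fold in Late and 1.75-fold in Reactivated, and both calls ended with the same total (log2 fold changes 0.20 and 0.32).

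Of 28 genes of the RNA polymerase III machinery, 9 rose and 4 fell in Late against Basal, where 25.4% of all genes rose and 23.6% fell (median 0.24 beside -0.03). In Reactivated against Basal 4 rose and 3 fell, beside 20.6% and 18.8% of all genes (median -0.08 beside 0.02), and in Reactivated against Late 4 passed, all lower, beside 12.3% of all genes. With the same total the splits were 1 higher and 16 lower in Late against Basal and 1 higher and 12 lower in Reactivated against Basal. In Reactivated against Late 1 gene passed, lower. The splits over all 15668 genes were then 1401 higher and 9062 lower, 1240 and 5833, and 3881 and 1091 in the same order. Polr3g, a subunit of the polymerase, rose 6.01-fold in Late (211 ± 11.4 normalized counts, against 35.2 ± 4.62 in Basal) and 3.34-fold in Reactivated (118 ± 37.8). Its paralog Polr3gl rose 2.18-fold in Late, a call that ended with the same total (0.30), and Polr3f, another subunit, fell 2.15-fold in Reactivated.

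Of 29 pre-rRNA processing genes, 12 rose and 8 fell in Late against Basal, beside 25.4% and 23.6% of all genes (median 0.16 beside -0.03). Reactivated against Basal had 7 higher and 6 lower, beside 20.6% and 18.8% of all genes (median 0.04 beside 0.02). Scaling to the same total gave 1 higher and 18 lower in Late against Basal and 1 higher and 14 lower in Reactivated against Basal. Beside these stood 1401 higher and 9062 lower of all 15668 genes in Late, and 1240 and 5833 in Reactivated. With replicates 1 and 2 of Basal, Early and Late summed into 1 library per group, a setting chosen after seeing the data, 10 passed in Late against Basal, beside 20 without it, and 2 in Reactivated against Basal, beside 13. Rrp9, a protein of the U3 particle that cuts the precursor, rose 2.87-fold in Late and 2.01-fold in Reactivated. Npm1, nucleophosmin, an abundant nucleolar protein, fell 2.52-fold in Late. Npm1 rose 3.66-fold in Reactivated against Late (623 ± 19.7 normalized counts in Reactivated, 170 ± 17.4 in Late, SD, n = 3 each).

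**Figure D3:**
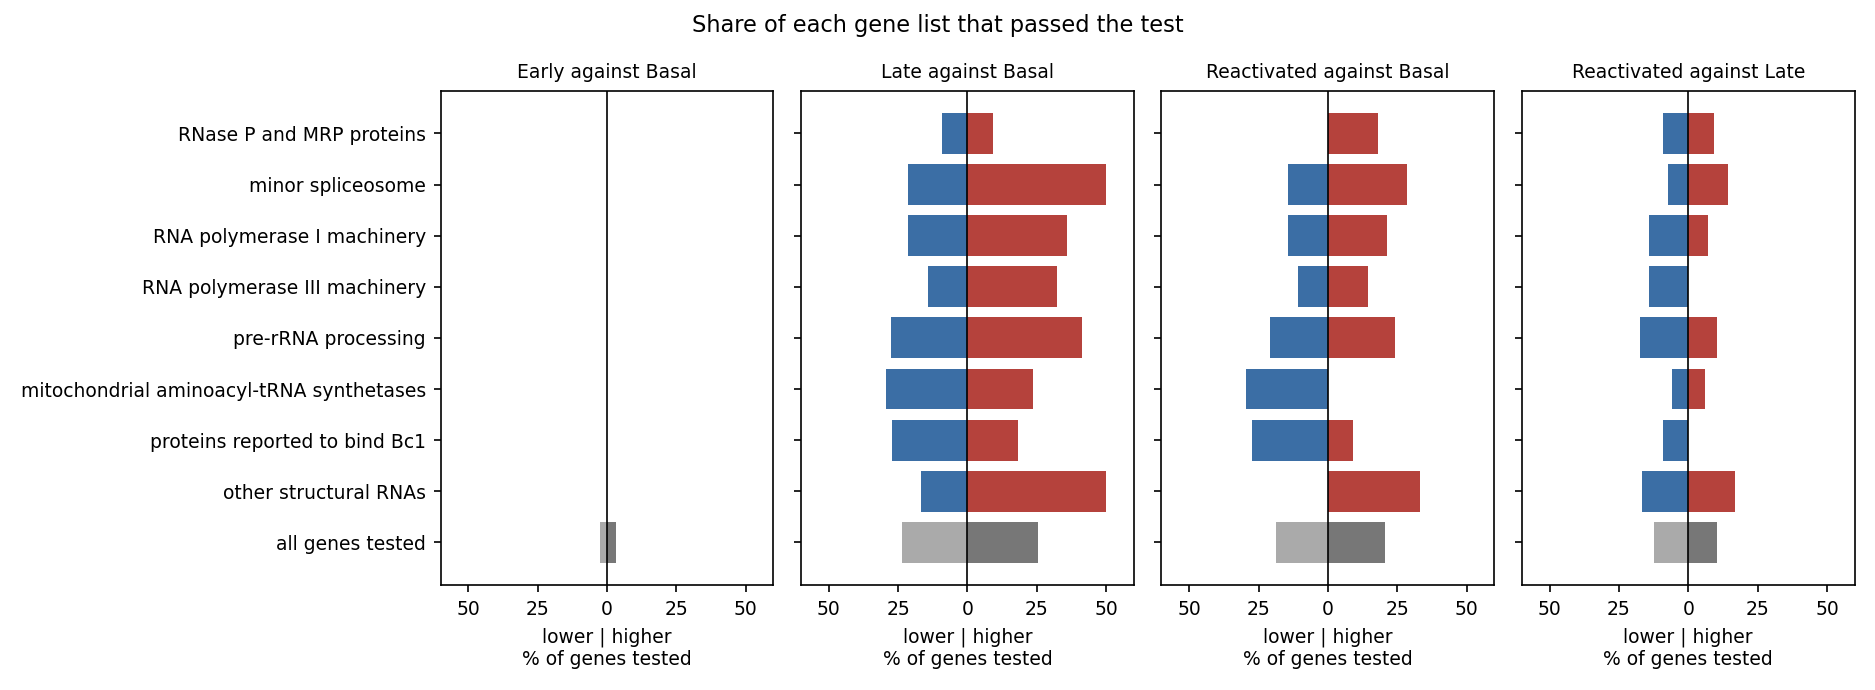
Percentage of the tested genes of each list that rose (bars to the right) or fell (bars to the left) in 4 comparisons by edgeR's quasi-likelihood test at an adjusted p of at most 0.05, with all genes tested in grey in the lowest line. With the TMM scaling plotted, the lists hold higher and lower genes side by side in Late against Basal, and no listed gene passed in Early against Basal.

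Rnu11, the U11 RNA, was lowest in Late and highest in Reactivated. It had 672, 1035 and 1249 normalized counts in Early, 478, 447 and 595 in Late, 8457, 1829 and 3955 in Reactivated, and 794, 731 and 1144 in Basal. All Late libraries lay below all others, all Reactivated libraries lay above all others, and Early and Basal overlapped. The log2 fold change was -0.81 ± 0.40 (SE) in Late against Basal, 2.41 ± 0.41 in Reactivated against Basal and 3.23 ± 0.43 in Reactivated against Late. The Reactivated libraries spread more than those of any other group, with the highest 4.63 times the lowest. Without Reactivated 1 the value in Reactivated against Basal was 1.70 and without Reactivated 2 it was 2.80. In Late against Basal it was -0.58 without Basal 3 and Early 3 together and -1.62 with the same total.

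U12, its partner in the same particle, did not rise as far as U11 in Reactivated. Within that group, replicate 1 was highest and replicate 2 lowest for both RNAs. Rnu12 had 424, 642 and 488 normalized counts in Early, 211, 248 and 402 in Late, 1061, 326 and 577 in Reactivated, and 527, 602 and 537 in Basal. It was lowest in Late without overlap with Early or Basal, and Reactivated overlapped with every group. Rnu12 fell 1.92-fold in Late against Basal (adjusted p = 0.0297 by edgeR's quasi-likelihood test), a call that ended without Basal 2, Late 1 or Late 2. Its rise of 2.26-fold in Reactivated against Late ended without Late 1, Late 2 or Reactivated 1. Both calls also ended with replicates 1 and 2 of Basal, Early and Late summed (log2 fold changes -0.80 and 1.05), and the fall ended without Basal 3 and Early 3 together (-0.96). Within a library, Rnu11 had 1.59, 1.61 and 2.56 counts per Rnu12 count in Early, 2.26, 1.80 and 1.48 in Late, 7.97, 5.60 and 6.85 in Reactivated, and 1.51, 1.21 and 2.13 in Basal. Every Reactivated library was above every other library, and the other groups overlapped. Against Rmrp the pattern was another one, with Rnu11 at 0.241 ± 0.0805 counts per Rmrp count in Early, 0.0481 ± 0.00367 in Late, 0.267 ± 0.0825 in Reactivated and 0.204 ± 0.0342 in Basal (SD, n = 3 each).

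Of 14 tested genes of the minor spliceosome, 7 rose and 3 fell in Late against Basal, where 25.4% of all genes rose and 23.6% fell (median log2 fold change 0.52 beside -0.03 over all genes). In Reactivated against Basal 4 rose and 2 fell, where 20.6% of all genes rose and 18.8% fell (median 0.26 beside 0.02). The same total gave 3 higher and 7 lower in Late against Basal, and 2 higher and 3 lower in Reactivated against Basal. It gave 1401 higher and 9062 lower of all 15668 genes in Late, and 1240 and 5833 in Reactivated. Rnpc3, the protein that bridges U11 and U12, fell 3.52-fold in Late (319 ± 29.5 normalized counts, against 1127 ± 80.7 in Basal) and 2.41-fold in Reactivated (467 ± 39.0). Pdcd7, a protein of the U11 particle, rose 2.47-fold in Late. Zrsr2, which recognizes the end of minor introns, rose 2.45-fold in Late and 1.93-fold in Reactivated, and Zmat5, a zinc finger protein of the particle, rose 3.45-fold in Reactivated.

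Bc1, the dendritic RNA, differed between all 4 groups. It had 1302, 1042 and 1467 normalized counts in Early, 198, 235 and 154 in Late, 6049, 6058 and 4034 in Reactivated, and 510.4, 538 and 713 in Basal. No library of any group overlapped with a library of another, and the order was Reactivated, Early, Basal and Late. The standard error of its log2 fold changes was at most 0.24, while the other 5 RNAs had errors of 0.37 or more. The log2 fold change was 1.11 ± 0.21 (SE) in Early against Basal, -1.59 ± 0.21 in Late against Basal and 3.19 ± 0.22 in Reactivated against Basal. In Reactivated against Late it was 4.78 ± 0.24, a 27.6-fold difference. Between Reactivated and Early it was 2.08 ± 0.21. Over 22 alternatives the value in Early against Basal ran from 1.00 to 1.28, and the value in Late against Basal from -2.44 with the same total to -1.26 without replicate 3 of Early, Late and Basal. Raw counts in Late were low, at 165, 178 and 165, so the 95% Wilson interval of its share spanned up to 30.6% of the share itself.

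Of 11 genes for proteins reported to bind Bc1, 2 rose and 3 fell in Late against Basal (median -0.10 beside -0.03). In that comparison 25.4% of all genes rose and 23.6% fell. Against the same Basal libraries 1 rose and 3 fell in Reactivated, where 20.6% of all genes rose and 18.8% fell (median -0.34 beside 0.02). Under the same total 10 passed in Late against Basal and 7 in Reactivated against Basal, all lower. Among all 15668 genes 9062 were lower and 1401 higher in Late on that scale, and 5833 lower and 1240 higher in Reactivated. Syncrip, an RNA-binding protein of dendritic granules, fell 1.57-fold in Late and 1.59-fold in Reactivated. Ssb, the La protein that binds the ends of RNA polymerase III transcripts, fell 2.06-fold in Late, and Eif4a2, a helicase of translation initiation, fell 1.64-fold. Eif4b, a partner of that helicase, rose 1.61-fold in Reactivated against Basal, a call that ended with the same total (0.22).

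In Early against Basal, where 3.36% of all genes rose and 2.66% fell, 0 of the 129 tested genes of the 8 lists passed by edgeR's quasi-likelihood test. At an unadjusted p under 0.05 there were 11, and DESeq2 called 1. Of 6 tested other structural RNAs, 3 rose and 1 fell in Late against Basal (median 1.18 beside -0.03). There 25.4% of all genes rose and 23.6% fell. The 1 that fell was Rnu12, which is also in the minor spliceosome list. In Reactivated against Basal 2 rose, beside 20.6% of all genes. With the same total 2 rose and 1 fell in Late, where 1401 of all 15668 genes rose and 9062 fell. In Reactivated 2 rose with that scaling, beside 1240 of all genes. Vaultrc5, a vault RNA made by RNA polymerase III, had 16.3 ± 3.07 normalized counts in Early, 81.5 ± 13.8 in Late, 97.5 ± 55.7 in Reactivated and 25.6 ± 10.9 in Basal (SD, n = 3 each), and rose 3.09-fold in Late and 3.63-fold in Reactivated against Basal. The Late call ended with the same total (0.82). Rnu73b, another small RNA, had 9.07 ± 1.43 in Early, 67.2 ± 32.8 in Late, 16.5 ± 6.27 in Reactivated and 6.14 ± 3.77 in Basal.

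**Figure D4:**
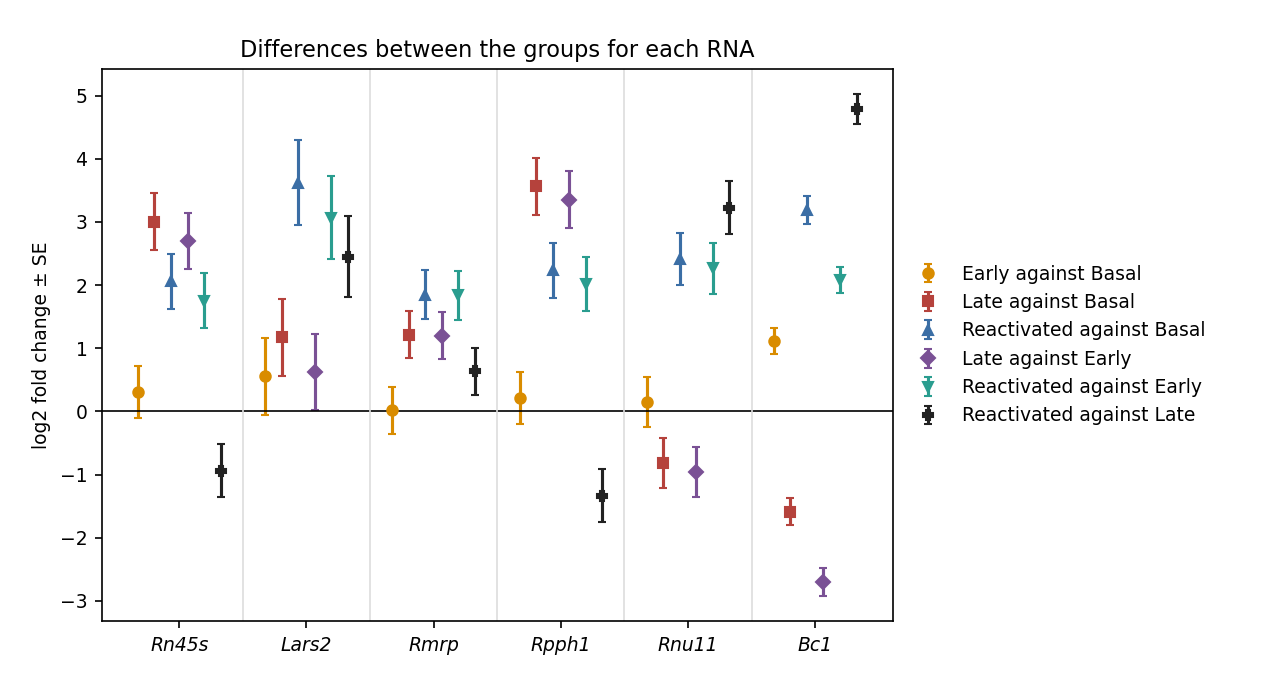
Log2 fold change of each RNA in the 6 comparisons, with bars of 1 SE on each side from edgeR's fit to all 12 libraries. Bc1 has the smallest errors and the widest span, with -2.70 in Late against Early and 4.78 in Reactivated against Late. All 6 RNAs are above 0 in Reactivated against Basal.

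Set side by side per 100 bases of transcript, the order of the RNAs changed between groups. In Late, Rpph1 had 11052 ± 5138 normalized counts per 100 bases, Rmrp 3875 ± 300.1, Rnu11 378 ± 58.3 and Bc1 117 ± 24.2. In Reactivated, Rmrp had 6024 ± 2698, Rpph1 4389 ± 1193, Rnu11 3542 ± 2526 and Bc1 3202.5 ± 694. In Basal, Rmrp had 1670.4 ± 667, Rpph1 934 ± 489, Rnu11 664 ± 166 and Bc1 349 ± 65.5. Bc1 had the lowest mean of the 4 in these groups, while in Early it had 756 ± 127 and Rnu11 735 ± 218. Lengths are those of GENCODE, and Rn45s has no length there.

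Likeness between the RNAs was measured over the 12 libraries as the root mean square difference of log2 CPM, each centred on its own mean. Rn45s and Rpph1 were the most alike pair, at 0.307, and Rpph1 and Bc1 the least alike, at 2.53. Rnu11 and Bc1 differed by 0.933, and Rmrp and Rpph1, whose proteins are mostly shared, by 0.985. Among 10400 other genes with a mean of at least 50 normalized counts, Drap1 (0.313) and Snora15 (0.318) were nearest to Rn45s, and H1fx (0.218) and Snord22 (0.232) to Rmrp. Nhlh2 (0.362) and Adamts5 (0.375) were nearest to Rpph1. Snord22 and Snora15 are small nucleolar RNAs.

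The genes nearest to Rnu11 were small RNAs of the Cajal body and nucleolus, Scarna3b (0.414), Scarna3a (0.424) and Snora35 (0.452), which guide the modification of other RNAs. Snora35 had 182 ± 17.6 normalized counts in Early, 126 ± 9.46 in Late, 1746 ± 1344 in Reactivated and 179 ± 43.9 in Basal (SD, n = 3 each). Scarna3a was also nearest to Bc1, at a larger distance of 0.842, with 80.0 ± 38.2 in Early, 29.0 ± 14.7 in Late, 346 ± 171 in Reactivated and 82.8 ± 29.1 in Basal. Adamts7 (0.704) and Basp1 (0.742) were nearest to Lars2. Basp1, a protein of growing axons, had 1005 ± 481 in Early, 1741 ± 361 in Late, 4993 ± 512 in Reactivated and 531 ± 177 in Basal.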

How the data were processed

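RNA of sorted hippocampal nuclei was measured in 12 libraries. The authors deposited whole-number read counts per gene symbol, unscaled as tested on the values although the table's name says normalized. Bowtie2 2.0, Cufflinks 2.2, DESeq2 and build mm9 are named, per the submitters' processing notes. Which tool counted reads, with which annotation and strand setting, is not given in the sources used here. Of 24015 rows, 2989 were 0 in all libraries. Totals were 4838166 to 11120255.

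Genes with at least 10 counts in at least 3 libraries (15668) were fitted with edgeR 4.0.16 (TMM, quasi-likelihood, R 4.3.3), the 4 group means over 12 libraries. P-values were two-sided and Benjamini-Hochberg adjusted over all genes, with a threshold of 0.05. The RNAs described, the gene lists and the tests were chosen with earlier results of these data known. From each list, up to 3 genes with the smallest p among those passing with a mean of at least 20 normalized counts were named, every passing other structural RNA, and for each RNA the 3 genes nearest in pattern (fewer are printed, and a gene that the rule named is not reported here). Rprl1 and Rprl2, Ccdc107 and Ccnb1ip1 were named after their values were seen. Wilson intervals (95%) cover counting error only, since PCR copies are not independent molecules.

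Replicates are pools of mice. Same-numbered Early and Basal libraries deviated together from their group means (r = 0.331, 0.143 and 0.484), which pairs them by the data and by no label. A block on the replicate number moved no log2 fold change of the 6 RNAs in Early against Basal by more than the spread within the groups. In the self-test of Late against Basal on simulated counts of 15405 genes, 83 of 100 changes of 2-fold and 100 of 100 of 4-fold were recovered, with 6 false calls. The simulated libraries were independent, and few genes changed, as many up as down. These rates therefore do not carry over to the real comparison, where 7686 genes were called and replicates 1 and 2 were much alike. Alternatives were DESeq2 1.42.0, other scalings, no filter, a replicate block and libraries left out. Transcripts were compared with BLAST 2.17.0 and drawn values with matplotlib 3.10.9. GENCODE M21 is of GRCm38 and not mm9, so no coordinates are given. Rnu4atac and Rnu6atac were not analysed here, and Taf1a and Rprl1 were too low to test.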

Additional observations from a re-analysis of the deposited data

Results flagged for a closer look

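Rnu11 and Bc1 moved to opposite sides of Basal in different groups. For Rnu11 every Late library lay below and every Reactivated library above the Basal libraries, with log2 fold changes of -0.81 in Late and 2.41 in Reactivated. For Bc1 every Early library lay above Basal (1.11), every Late library below it (-1.59) and every Reactivated library above it (3.19). The difference between these effects was not tested, since the RNAs were chosen with these levels known. The groups share the Basal libraries. On the counts as deposited the Late and Basal libraries of Rnu11 overlapped. Groups of 3 libraries are too small for a check of single outlying libraries.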

How the results depend on the processing

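The log2 fold changes of the 6 RNAs kept their sign under all 22 alternatives in the 5 comparisons other than Early against Basal. There, all but Bc1 changed sign without Early 3, where Rn45s was at -0.27, Lars2 at -0.59, Rmrp at -0.58, Rpph1 at -0.23 and Rnu11 at -0.05. Other settings reversed some of them too. Of the 22 alternatives, Rmrp kept its sign in 15 and Rpph1 in 20, and Rn45s, Lars2 and Rnu11 in 21 each. Over all alternatives 759 values of the RNAs moved by less than the spread and 33 by more.

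Whether replicates 1 and 2 of Early, Late and Basal share a source that replicate 3 does not was not tested. With each such pair summed into 1 library, a setting chosen after seeing the data, fewer genes were called than in the main fit. The numbers were 213 beside 944 in Early against Basal, 4411 beside 7686 in Late against Basal and 3274 beside 6174 in Reactivated against Basal. They were 2965 beside 6631 in Late against Early, 810 beside 4109 in Reactivated against Early and 1767 beside 3541 in Reactivated against Late. Counts of listed genes called in Late against Basal were then 6 beside 10 in the minor spliceosome, 5 beside 13 in RNA polymerase III and 10 beside 20 in pre-rRNA processing. They were 3 beside 8 in RNA polymerase I and 5 beside 9 in the list of synthetases with Qrsl1. The last lists had 3 beside 5 among proteins reported to bind Bc1 and 1 beside 2 in RNase P and MRP. For Reactivated against Basal they were 4 beside 6, 3 beside 7, 2 beside 13, 3 beside 5, 3 beside 5, 2 beside 4 and 1 beside 2 in the same order of lists. Leaving out 1 library, or Basal 3 and Early 3 together, gave 488 to 1224 in Early against Basal (488 without Basal 2, 549 without Early 1, 598 without Basal 1, 618 without Early 2), 6101 to 8320 in Late against Basal, 4193 to 6923 in Reactivated against Basal, 4781 to 7365 in Late against Early, 1703 to 5343 in Reactivated against Early (1703 without Early 2, 1801 without Early 1) and 2135 to 4402 in Reactivated against Late (2135 without Late 1, 2183 without Late 2).

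Scaling set the split of the calls. In Late against Basal 3981 genes rose and 3705 fell, 1401 and 9062 with the same total, 3016 and 5114 with upper quartile scaling. In Reactivated against Basal 3228 rose and 2946 fell, 1240 and 5833 with the same total. In Reactivated against Late 1615 rose and 1926 fell, 3881 and 1091 with the same total. With the same total Fmr1 reversed in Late against Early, to -0.14. The Lars2 share in Reactivated was 5.30% of the counts without Rn45s. DESeq2 called 1283 in Early against Basal and 7927 in Late against Basal.

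Of 18 same-numbered pairs of libraries 4 correlated above 0.1 (-0.22 to 0.48), among them the 3 pairs of Early with Basal, and 7 of 12 libraries were closest to their own number. Outside Early against Basal the numbers did not pair the libraries. With the replicate block 928 genes were called in Early against Basal, 7665 in Late against Basal, 6111 in Reactivated against Basal, 6612 in Late against Early, 4027 in Reactivated against Early and 3466 in Reactivated against Late. Among the 6 RNAs counting error was widest, relative to the share, for Bc1.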
